A study of Mus musculus with 6 samples.

Results

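The 9 genes described here handle retinoids in the cell: the retinol transporter Stra6, the binding proteins Rbp4, Crabp1 and Crabp2, the retinaldehyde dehydrogenases Aldh1a1, Aldh1a2 and Aldh1a3, the retinoic acid hydroxylase Cyp26b1 and the receptor Rarb. They are 9 of the 41126 genes in the table of all genes, named by their place in the pathway. They were chosen by values of these same libraries, since their fragments and FPKM in GOF against control were known when the list was made, so their differences between the groups are given as a description, without p-values. Where one of them is said to be called, this states only on which side of the thresholds its fitted value fell. RNA was measured in 6 cultures of mouse dermal fibroblasts labelled as harvested at P4 (the study's text allows somewhat older pups), of a mixed CD1 and C57Bl6 background, with 3 control cultures and 3 cultures in which β-catenin had been stabilized (gain of function, GOF). The labels give adenovirus at a multiplicity of infection of 366 to 500, for 6 h without serum, for every culture, whereas the study's text gives that range for the Cre virus and its lower end alone for the GFP virus, so virus dose and group cannot be told apart either. GOF cultures received a virus that expresses Cre and carried a Ctnnb1 allele from which exon 3 had been excised, which removes the sites that mark β-catenin for degradation. Control cultures received a virus that expresses GFP and are labelled wild type, whereas the study's text gives them the same unrecombined allele, so exposure to Cre and stabilized β-catenin cannot be told apart here. The labels also name the Cre virus in the treatment of every culture, controls included. The 6 cultures came from 4 animals, of which 2 gave 1 culture to each group: control replicate 0 shared an animal with GOF replicate 2, and control replicate 2 with GOF replicate 0. Cultures of 1 animal share its inherited genotype, so for these 2 controls the wild type label conflicts with the allele of their GOF partners. Fibroblasts in culture lack the epidermis and other neighbours they have in skin.

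Retinol travels in blood bound to RBP4 and can enter a cell through STRA6. Inside the cell it is oxidized to retinaldehyde and then, by the ALDH1A enzymes, to retinoic acid, which CRABP1 and CRABP2 bind in the cytoplasm and which CYP26 enzymes break down. Retinoic acid acts through nuclear receptors of the RAR and RXR families, and in skin and its appendages a balance of local synthesis and breakdown is known to shape growth and patterning. Rarb and Cyp26 genes are textbook targets of retinoic acid itself.

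The libraries held 35980831 to 42834467 fragments. Axin2, a direct β-catenin target used as a check of the model, had 0.136 to 0.177 FPKM (fragments scaled for transcript length and library depth) in controls and 14.4 to 19.2 FPKM in GOF, a log2 fold change of 6.98 (SE 0.26, edgeR quasi-likelihood test, adjusted p = 4.95e-05). Ctnnb1 itself stood at 267 ± 16.3 and 263 ± 28.8 FPKM (SD, n = 3 each). The 10 fibroblast markers were all detected at 1 FPKM or more. Their summed level ran from 3180 to 4193 FPKM in controls and from 2660 to 3301 FPKM in GOF. This sum combined genes that moved in opposite directions. Dcn (mean 1058 FPKM in controls and 330 FPKM in GOF), Col1a2 (867 and 387) and Fbn1 (209 and 75.1) were lower in GOF without overlap. Vim (798 and 1339) was higher without overlap, and the other fibroblast markers overlapped between the groups. Of 10 keratinocyte markers only Dsp, a desmosomal plaque gene, reached 1 FPKM in any library. The list summed to 0.500 to 0.707 FPKM in controls and 2.97 to 6.88 FPKM in GOF. Krt5, Krt14, Krt1, Epcam, Trp63 and Dsg3 were under 0.1 FPKM throughout, and Krt10 ran from 0.311 to 0.487 FPKM over all libraries. The adipocyte list (2 of 7 genes at 1 FPKM or more, Adipoq and Plin1 under 0.1) summed to 10.1 to 12.1 FPKM in controls and 2.91 to 4.87 FPKM in GOF, and the Schwann cell and melanocyte list (2 of 8 genes) to 7.40 to 9.74 FPKM and 1.85 to 4.80 FPKM. The skeletal muscle list (1 of 7 genes) went from 22.7 to 26.9 FPKM in controls to 137 to 171 FPKM in GOF through Acta1, with Myod1 and Ckm under 0.1 FPKM. The summed levels of the pericyte and smooth muscle, endothelial and macrophage lists overlapped between the groups. Single genes within the endothelial and macrophage lists nevertheless separated without overlap, in both directions. The macrophage gene Csf1r went from a mean of 1.32 FPKM in controls to 3.89 FPKM in GOF. Of the endothelial genes, Kdr went from a mean of 0.681 to 2.34 FPKM and Tek from 1.94 to 0.425 FPKM. The part of any such shift in the results below was not tested, and in bulk RNA a change in the number of expressing cells and a change in RNA per cell cannot be told apart.

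Of the 9 genes, 8 passed the filter on low counts, and Rbp4 did not. In the fit over all 15462 genes tested, 5 of the 8 passed both thresholds (an adjusted p below 0.05 together with more than a 2-fold change, called below) in the higher direction: Stra6, Crabp1, Aldh1a2, Cyp26b1 and Rarb. Among all genes tested 6.69% were called higher, 5.64% lower and 12.3% in either direction. Aldh1a3 was called lower, and Crabp2 and Aldh1a1 were not called. For each of the 5 genes called higher, every GOF FPKM value lay above every control value, a separation that 20.3% of all genes tested had. The median log2 fold change of the 8 genes was 1.72, beside -0.02 over all genes tested. Stra6 passed the filter through the GOF libraries alone. Since the genes were listed with this contrast in view, nothing is read from these shares.

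**Figure D1:**
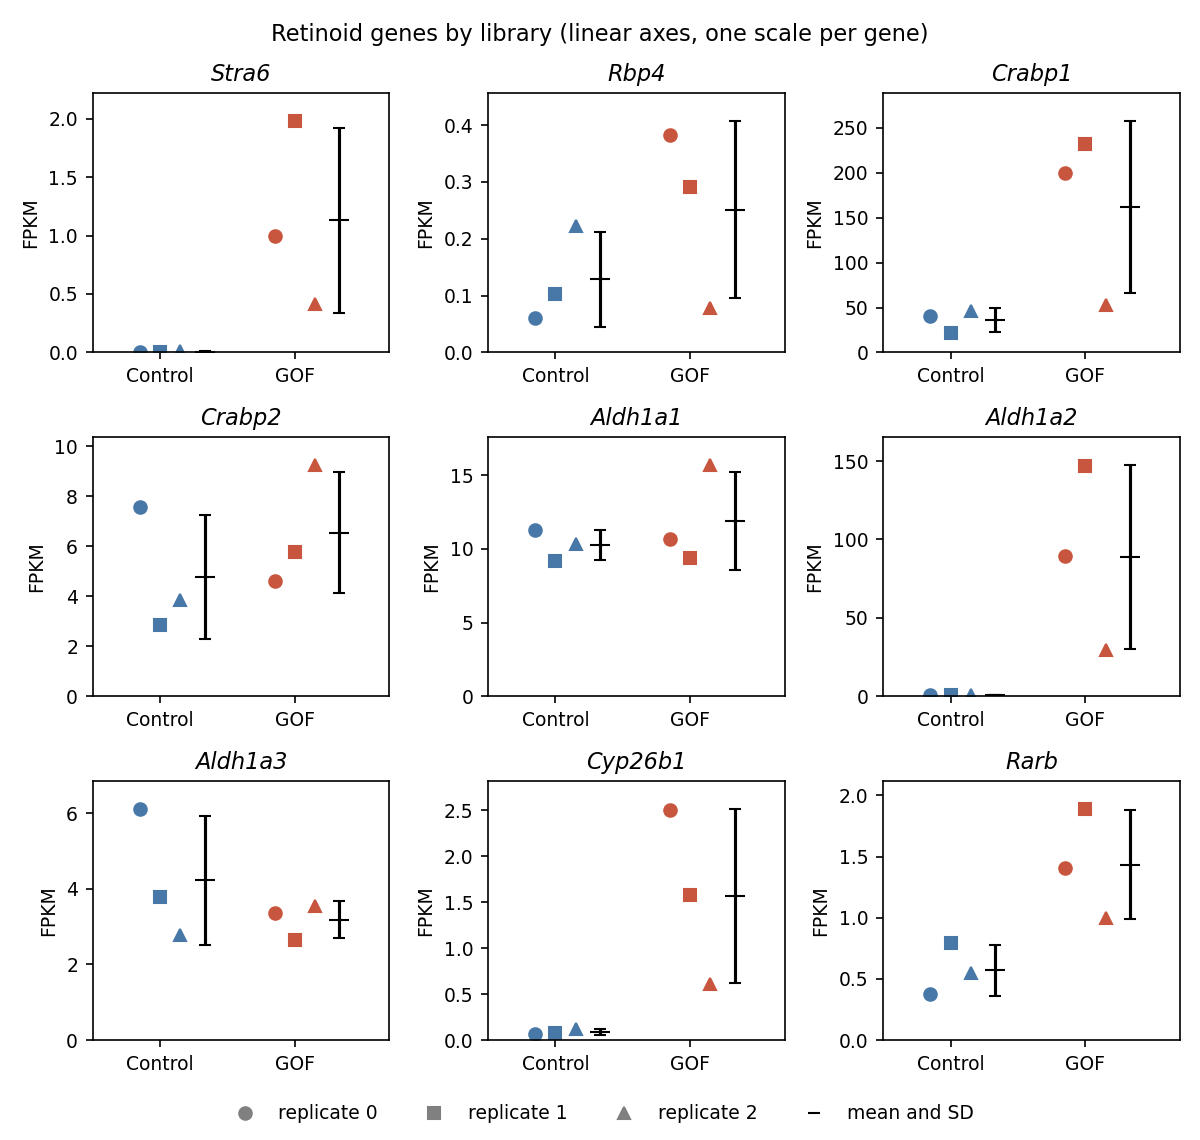
FPKM of the 9 retinoid genes in each library, 1 panel per gene with its own linear axis from 0. Points are the 3 libraries of each group, with a marker shape for each replicate number, and the black marks are the group mean and SD. GOF points lie above all control points for Stra6, Crabp1, Aldh1a2, Cyp26b1 and Rarb and overlap them for the other 4 genes.

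Uptake was represented by Stra6 (ENSMUSG00000032327, chr9:58063788-58153996, plus strand, GRCm38), which encodes the membrane receptor that takes retinol from RBP4. It was close to absent from controls, with 0, 0 and 1 fragments in replicates 0, 1 and 2, and present in every GOF library, with 111, 175 and 50 fragments. On the FPKM scale these were 0, 0 and 0.00934 in controls and 0.997, 1.98 and 0.413 in GOF. The groups did not overlap, and GOF replicate 2 held the least of the GOF libraries. Set against 3 fragments per library, the most that the controls were allowed for such a bound, the GOF level was at least 36.3-fold higher. The ratio of the summed fragments, 336 in GOF against 1 in controls, was 325 after scaling for library size, with an exact 95% interval of 58.0 to 12879 that covers counting error only. Ccdc33 on the opposite strand and Gm16131 on the same strand overlap the gene's span, and no library held more than 1 fragment of either.

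The 250 bases before the first of 4 RefSeq start sites of Stra6 (GRCm38.p6, chr9:58128838-58129087, plus strand) are shown because the gene was read at no more than 1 fragment in controls and at 50 or more in GOF.
Stra6: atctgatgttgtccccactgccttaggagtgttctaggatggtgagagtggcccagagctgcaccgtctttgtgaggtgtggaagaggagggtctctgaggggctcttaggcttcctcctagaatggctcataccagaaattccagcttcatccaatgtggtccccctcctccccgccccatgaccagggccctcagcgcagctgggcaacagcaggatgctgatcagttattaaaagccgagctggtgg
No match to the β-catenin partner motif TCF/LEF, searched as CTTTGAA and, as the other allowed form, CTTTGAT on both strands, lies in this window. The window before the second start site has 1 match. Of 32851 windows of the same length before RefSeq start sites, 7.48% hold such a match.

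Rbp4 (ENSMUSG00000024990, chr19:38116629-38125281, minus strand), the gene of the plasma retinol carrier, was near the limit of detection. Controls held 2, 4 and 8 fragments (0.0610, 0.103 and 0.222 FPKM) and GOF libraries 14, 10 and 3 fragments (0.383, 0.291 and 0.0791 FPKM). The groups overlapped, since GOF replicate 2 lay below control replicates 1 and 2. With 4 and 8 fragments in 2 of the controls, Rbp4 lay outside the limit of 3 fragments for a lower bound on the fold, whereas Stra6, with at most 1, lay inside it, and none of the other 7 genes was within it.

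The binding protein gene Crabp1 (ENSMUSG00000032291, chr9:54764748-54773110, plus strand) had the highest level of the 9 in both groups. In controls it stood at 40.9, 21.2 and 46.7 FPKM and in GOF at 200.0, 232 and 52.7 FPKM. All GOF libraries lay above all controls, but GOF replicate 2 did so by little. Group means were 36.3 ± 13.4 and 162 ± 95.6 FPKM (SD, n = 3 each), and the fitted log2 fold change was 2.12 (SE 0.51). The 2 animals that gave both cultures differed in size of change: the level was 4.29 times as high in GOF in the animal of control replicate 2 and 1.29 times as high in the animal of control replicate 0. In all fits with the animal as a replicate block, only the 2 animals that gave both cultures inform the group difference. Little is then left to estimate the spread from. With this block the log2 fold change was 1.26 and the gene was no longer called. It was also not called without control replicate 1 (1.86), GOF replicate 0 (1.95) or GOF replicate 1 (1.77), with the label number as the block (1.96) or in the limma fits on FPKM (1.94 and 1.97), which makes 7 of 15 alternatives.

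Crabp2 (ENSMUSG00000004885, chr3:87948666-87953376, plus strand) encodes the second cellular retinoic acid binding protein, known to carry its ligand to nuclear receptors. Control values were 7.58, 2.86 and 3.84 FPKM and GOF values 4.62, 5.76 and 9.24 FPKM. The ranges overlapped widely, with a log2 fold change of 0.45 (SE 0.40) and no call. The ratio of Crabp1 to Crabp2 was 5.40, 7.41 and 12.1 in controls and 43.3, 40.3 and 5.70 in GOF. It thus lay far above the controls in 2 GOF libraries and among them in GOF replicate 2.

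The sequence before the single RefSeq start site of Crabp1 (GRCm38.p6, chr9:54764498-54764747, plus strand) is shown as that of the most abundant of these genes.
Crabp1: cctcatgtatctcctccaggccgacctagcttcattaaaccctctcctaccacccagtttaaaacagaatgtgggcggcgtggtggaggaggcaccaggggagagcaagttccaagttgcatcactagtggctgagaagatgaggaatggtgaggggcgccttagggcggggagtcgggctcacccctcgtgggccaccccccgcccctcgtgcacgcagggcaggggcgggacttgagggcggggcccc
It holds no match to the TCF/LEF motif. It also holds no direct repeat of retinoic acid receptor half-sites (AGGTCA in its usual form, with AGTTCA searched as a variant of it, then GGGTCA as the next variant searched and GGTTCA as the last) spaced by 5 or 2 bases, repeats found in 0.0883% and 0.174% of all windows.

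Among the 3 genes of retinoic acid synthesis, Aldh1a2 (ENSMUSG00000013584, chr9:71215789-71296243, plus strand) differed most between the groups. Its product, also called RALDH2, is the main source of retinoic acid in the early embryo. Controls held 75, 56 and 82 fragments and GOF libraries 9375, 14808 and 3091. In FPKM these were 0.819, 0.515 and 0.795 in controls and 89.7, 147 and 29.8 in GOF. The lowest GOF library, replicate 2, was far above the highest control. The fitted log2 fold change was 6.96 (SE 0.65), 125-fold, and it ran from 5.45 to 7.38 over the alternatives. Within the animal of control replicate 2 the level was 113 times as high in GOF, and within that of control replicate 0 it was 36.3 times as high. Gm48124, a pseudogene on the opposite strand, lies within the span of the gene.

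Aldh1a1 (ENSMUSG00000053279, chr19:20492715-20643465, plus strand) was the most abundant of the 3 in controls, at 11.3, 9.21 and 10.4 FPKM, and stood at 10.7, 9.39 and 15.7 FPKM in GOF. The groups overlapped, and the log2 fold change of 0.19 (SE 0.18) became -0.006 without GOF replicate 2. The pseudogene Gm6684 and C730002L08Rik overlap its span on the opposite strand.

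Aldh1a3 (ENSMUSG00000015134, chr7:66390890-66427517, minus strand) gave a different picture on each scale. Its fragments were 587, 496 and 343 in controls and 236, 176 and 244 in GOF, with no overlap and a log2 fold change of -1.20 (SE 0.27), called lower. Its FPKM values were 6.12, 3.78 and 2.79 in controls and 3.36, 2.64 and 3.56 in GOF, which overlapped. Depth-scaled fragments (CPM) divided by FPKM, which reflects the transcript length in kb by which the fragments were scaled, came to 2.67, 3.25 and 3.06 in controls and 1.69, 1.72 and 1.60 in GOF. The GOF mean was 0.557 of the control mean, the lowest such ratio among the 10754 genes with at least 100 fragments in every library, whose median was 0.968. The annotation lists 5 transcripts of Aldh1a3, from 535 to 3443 bases long, and which of them carried the fragments was not tested. The lower call was lost without control replicate 0 (-0.92), control replicate 1 (-1.23), GOF replicate 0 (-1.24) or GOF replicate 1 (-1.09), and on the FPKM scale, where the log2 fold change was -0.34 with a pseudocount of 0.1.

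**Figure D2:**
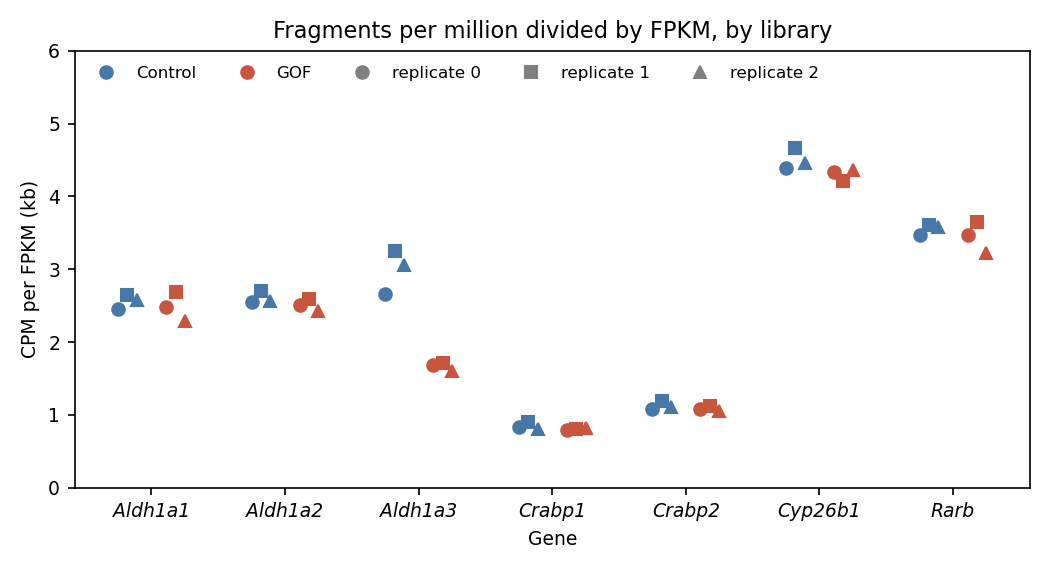
Depth-scaled fragments (CPM) divided by FPKM, in kb, for 7 of the retinoid genes in each library, on a linear axis from 0. Colour gives the group and marker shape the replicate number. The libraries of a gene lie close together except for Aldh1a3, whose 3 GOF libraries (1.60 to 1.72) lie below its 3 controls (2.67 to 3.25).

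The make-up of the 3 dehydrogenase genes turned over between the groups. Their summed level was 18.2, 13.5 and 14.0 FPKM in controls and 104, 159 and 49.0 FPKM in GOF. Aldh1a2 made up 4.49%, 3.81% and 5.70% of this sum in controls and 86.5%, 92.4% and 60.7% in GOF. Aldh1a1 made up 61.9%, 68.2% and 74.3% in controls and 10.3%, 5.90% and 32.0% in GOF. In each control Aldh1a1 was the leading dehydrogenase gene, and in each GOF library Aldh1a2 was, with GOF replicate 2 the most mixed.

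**Figure D3:**
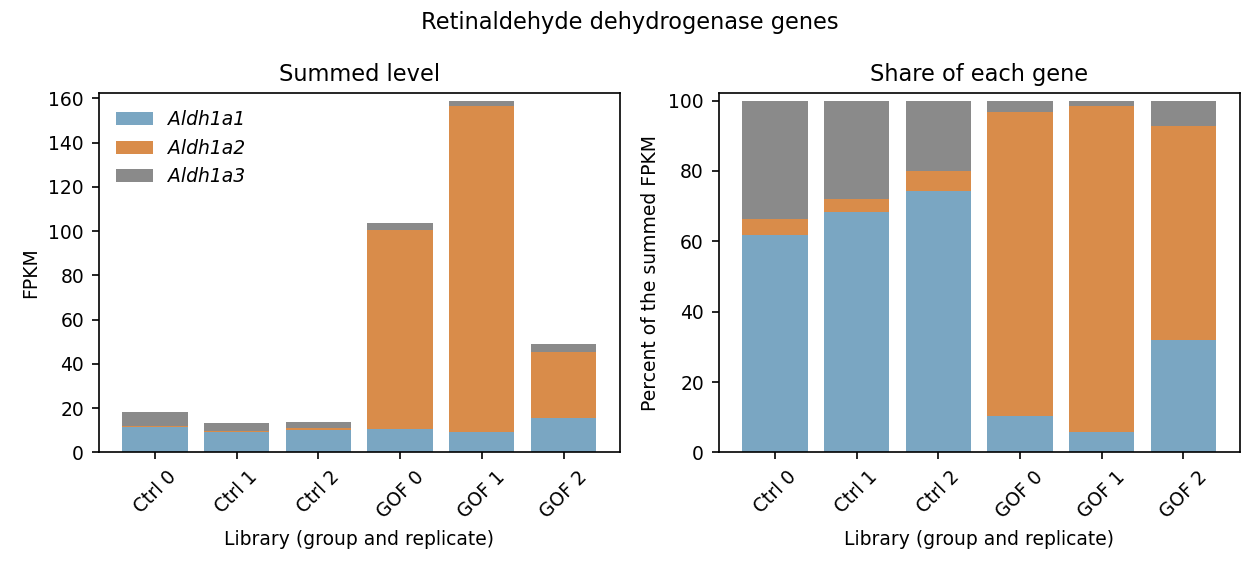
Retinaldehyde dehydrogenase genes in each of the 6 libraries. The left panel stacks the FPKM of Aldh1a1, Aldh1a2 and Aldh1a3 on a linear axis from 0, and the right panel gives the share of each in the sum, in percent. Aldh1a2 takes 3.81% to 5.70% of the sum in controls and 60.7% to 92.4% in GOF.

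Upstream sequences of Aldh1a1 (GRCm38.p6, chr19:20492333-20492582, plus strand, first of 2 start sites) and Aldh1a2 (chr9:71215539-71215788, plus strand) are set side by side because these genes changed places in rank, and capitals mark TCF/LEF matches.
Aldh1a1: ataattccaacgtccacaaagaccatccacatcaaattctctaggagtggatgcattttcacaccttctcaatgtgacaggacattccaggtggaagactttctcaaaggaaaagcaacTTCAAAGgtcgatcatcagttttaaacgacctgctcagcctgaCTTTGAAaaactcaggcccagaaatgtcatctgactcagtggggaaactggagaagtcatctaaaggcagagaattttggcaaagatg
Aldh1a2: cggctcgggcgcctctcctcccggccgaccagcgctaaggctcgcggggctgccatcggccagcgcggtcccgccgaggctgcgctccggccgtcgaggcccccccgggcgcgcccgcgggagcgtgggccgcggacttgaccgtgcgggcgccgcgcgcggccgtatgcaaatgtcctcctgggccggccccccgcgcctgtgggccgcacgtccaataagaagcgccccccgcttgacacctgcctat
The window of Aldh1a1, whose level overlapped between groups, holds 2 matches, at -131 to -125 and -88 to -82 from the start site, 1 on each strand. The Aldh1a2 window holds none, nor a receptor repeat of either spacing. Rbp4, whose window is not printed, also has 1 TCF/LEF match, at -30 to -24 from the first of its 2 start sites. A match is a string of letters and not a shown site of binding.

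Breakdown was represented by Cyp26b1 (ENSMUSG00000063415, chr6:84571414-84593908, minus strand), which encodes an enzyme that hydroxylates retinoic acid. It went from 11, 14 and 22 fragments in controls to 453, 260 and 114 in GOF. The levels were 0.0696, 0.0743 and 0.123 FPKM in controls and 2.51, 1.58 and 0.610 FPKM in GOF. Every GOF library lay several times above every control, with replicate 2 again lowest. The log2 fold change was 4.09 (SE 0.55), 17.0-fold, and within the shared animals the level was 20.4 times as high (control replicate 2) and 8.76 times as high (control replicate 0) in GOF. The ratio of the synthesis gene Aldh1a2 to Cyp26b1 was 11.8, 6.93 and 6.47 in controls and 35.8, 92.9 and 48.8 in GOF, without overlap. Of the 2 other genes of the family, Cyp26a1 did not exceed 3 fragments and Cyp26c1 did not exceed 4 in any library, so no fold is given.

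The bases from -250 to -99 before the RefSeq start site of Cyp26b1 (GRCm38.p6, chr6:84593909-84594060, minus strand) are printed as those of the only breakdown gene read at an appreciable level, and stop where an annotated exon begins.
Cyp26b1: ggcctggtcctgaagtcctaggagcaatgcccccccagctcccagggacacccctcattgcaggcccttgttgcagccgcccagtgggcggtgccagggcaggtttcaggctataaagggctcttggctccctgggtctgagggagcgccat
No TCF/LEF match or receptor repeat of either spacing lies in its window.

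Rarb (ENSMUSG00000017491, chr14:16430839-16819156, minus strand) encodes retinoic acid receptor β. Controls held 47, 115 and 79 fragments and GOF libraries 203, 268 and 138. The levels were 0.376, 0.790 and 0.549 FPKM in controls and 1.40, 1.89 and 0.999 FPKM in GOF, so the groups did not overlap, but the lowest GOF library lay close to the highest control. The log2 fold change was 1.32 (SE 0.36), 2.50-fold, and the change was of like size within both shared animals, 2.56 and 2.66 times. The gene was no longer called without control replicate 0 (1.10), control replicate 2 (1.28), GOF replicate 0 (1.34) or GOF replicate 1 (1.03). It was also not called by limma on log2(FPKM + 1) (0.62), and was not tested with a minimum of 1 FPKM in 3 libraries. Rarb shares 4624 bases with Top2b on the opposite strand, a gene at 45.1, 46.1 and 47.7 FPKM in controls and 39.9, 36.0 and 45.9 FPKM in GOF, and the sources do not say whether counting used the strand.

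The promoter of Rarb is known for a retinoic acid response element, and of the 7 genes with a RefSeq window it alone matched a spaced repeat of receptor half-sites. The 30 bases from -59 to -30 before its first RefSeq start site (GRCm38.p6, chr14:16575506-16575535, minus strand) follow, with the repeat of half-sites spaced by 5 bases in capitals.
Rarb: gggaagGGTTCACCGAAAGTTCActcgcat
Such a repeat lies in 29 of the 32851 windows, 0.0883%.

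The order of levels also changed. In controls it ran, by mean FPKM, from Crabp1 (36.3) through Aldh1a1 (10.3 ± 1.04), Crabp2 (4.76 ± 2.49), Aldh1a3 (4.23 ± 1.71), Aldh1a2 (0.709 ± 0.169), Rarb (0.572 ± 0.208), Rbp4 (0.129) and Cyp26b1 (0.0889) to Stra6 (0.00311). The library ranges of the neighbours Crabp2 and Aldh1a3, Aldh1a2 and Rarb, and Rbp4 and Cyp26b1 overlapped. In GOF it ran from Crabp1 (162) through Aldh1a2 (88.8 ± 58.6), Aldh1a1 (11.9 ± 3.33), Crabp2 (6.54 ± 2.41), Aldh1a3 (3.18 ± 0.487), Cyp26b1 (1.57 ± 0.95), Rarb (1.43 ± 0.446) and Stra6 (1.13) to Rbp4 (0.251). Here Crabp1 overlapped with Aldh1a2, Cyp26b1 with Rarb, and Rarb with Stra6. Aldh1a2 thus went from the fifth to the second place.

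GOF replicate 2 was the lowest GOF library for 6 of the 9 genes, namely Stra6, Rbp4, Crabp1, Aldh1a2, Cyp26b1 and Rarb, and the highest for Crabp2, Aldh1a1 and, in both fragments and FPKM, Aldh1a3. Among the 1034 genes called higher, replicate 2 was the lowest GOF library in 41.4%, replicate 1 in 43% and replicate 0 in 15.6%. For Axin2 the lowest GOF library was replicate 1 (14.4 FPKM), and replicates 0 and 2 lay close together (19.2 and 18.7 FPKM). The cause of the order of the GOF libraries was not tested.

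By distance over the 6 libraries on centred log2(FPKM + 0.1), a description over 6 points, the genes nearest to Aldh1a2 were Stc1 (1.05), Igsf11 (1.43) and Prr9 (1.49). Stc1, which encodes the secreted glycoprotein stanniocalcin 1, averaged 0.557 FPKM in controls and 68.5 FPKM in GOF. Nearest to Cyp26b1 were Spag17 (0.536), Inhba (0.648), the gene of an activin subunit, and Itga4 (0.674), an integrin gene. Itga4 (0.851) was also among the 3 nearest to Stra6, after Pgf (0.701), a gene of the VEGF family, and Spon1 (0.798). The controls of Stra6, at most 0.00934 FPKM, all lay under the added 0.1, which sets their side of the distance. The fitted log2 fold changes of Pgf, Spon1 and Itga4 were 3.50, 3.45 and 3.53, beside 7.91 for Stra6. Crabp1 lay nearest to Ttyh1 (0.666), Krt18 (0.836) and Nt5e (0.877), and Rarb to Gm8113 (0.366), Slc16a13 (0.435) and Tmem179 (0.460). Aldh1a3 lay nearest to Selenom (0.245), Cotl1 (0.275) and Pkhd1 (0.277), on the FPKM scale that differs from fragments for this gene. Their fitted log2 fold changes were -0.41, -0.50 and 0.64, beside -1.20 for Aldh1a3. Pkhd1 averaged 0.0533 FPKM in controls and 0.0215 FPKM in GOF, both under the added 0.1.

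A further 71 genes of retinoid handling and response were followed, of which 48 passed the filter on low counts. In the same fit 4 were called higher, 3 lower and 41 not at all, 14.6% against 12.3% of all genes tested, and their median log2 fold change was -0.07. The p-values measure the spread between these cultures, of which 2 pairs share an animal. These lists were drawn up with earlier results of these data known, as the genes described first were. Their p-values are therefore a description only, and nothing is read from these shares.

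Of 14 other genes of retinoid transport, uptake and storage 5 were tested, 1 was called higher and 1 lower. Rbp2, the intestinal cellular retinol binding protein, went from 1, 0 and 0 fragments to 18, 14 and 20, at least 5.54-fold higher against 3 fragments per library. It is the gene counted as called higher, and it passed the filter on low counts through the GOF libraries alone, so no p is given for it. The ratio of its summed fragments was 50.3, with an exact 95% interval of 8.64 to 2025 that covers counting error only. Fabp5, a fatty acid binding protein that can carry retinoic acid, had 136, 64.0 and 49.6 FPKM in controls and 20.7, 10.9 and 65.2 FPKM in GOF, a log2 difference of -1.44 that did not pass (edgeR adjusted p = 0.148). It was called with the animal as a replicate block (-1.21, edgeR adjusted p = 0.00172) and without GOF replicate 2 (-2.39, edgeR adjusted p = 0.0201). The group difference in the block fit comes only from the animals that gave both cultures. Lrat, which esterifies retinol for storage, did not exceed 3 fragments in any library.

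Of 19 retinol and retinal oxidoreductase genes 14 were tested, 1 was called higher and 1 lower. Adh1, an alcohol dehydrogenase that oxidizes retinol, had 25.4, 39.2 and 39.5 FPKM in controls and 8.12, 7.64 and 3.63 FPKM in GOF. This was a fall of -2.42 on the log2 scale (SE 0.32, edgeR adjusted p = 0.00246). Dhrs9, a short-chain dehydrogenase of retinol, rose from 0.810, 0.703 and 1.08 FPKM to 2.50, 2.45 and 2.02 FPKM, a log2 fold change of 1.43 (SE 0.23, edgeR adjusted p = 0.00512). Rdh10, the main retinol dehydrogenase of the embryo, was at 4.50, 5.90 and 7.30 FPKM in controls and 6.46, 8.11 and 7.48 FPKM in GOF, which overlapped (log2 0.33, edgeR adjusted p = 0.273). Dhrs3, which reduces retinaldehyde back to retinol, was at 48.9, 50.0 and 49.0 FPKM in controls and 34.0, 44.9 and 26.9 FPKM in GOF (log2 -0.47, edgeR adjusted p = 0.0780). Every GOF value of Dhrs3 lay below every control, as in 19.2% of all genes tested. With the animal as a replicate block the log2 difference was -0.65 (edgeR adjusted p = 0.0236) and without GOF replicate 1 it was -0.65 (edgeR adjusted p = 0.0283), both past the p threshold and under a 2-fold change.

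Of 6 other receptor genes, 5 were tested and 0 were called in the edgeR fit (4 at an unadjusted p under 0.05 and 0 called by DESeq2). Rarg, the main RAR of skin, was at 11.1, 13.8 and 13.5 FPKM in controls and 22.5, 17.3 and 19.5 FPKM in GOF, with a log2 fold change of 0.56 (SE 0.16, edgeR adjusted p = 0.0434) that stayed under 2-fold. Rara (log2 -0.04, edgeR adjusted p = 0.919), Rxra (-0.52, 0.0710) and Rxrb (-0.49, 0.103) did not pass. Rxra was past the p threshold, but under a 2-fold change, with the animal as a replicate block (-0.52, edgeR adjusted p = 0.0379), without control replicate 0 (-0.64, edgeR adjusted p = 0.0297) and by DESeq2 (-0.51, adjusted p = 0.0427). Rxrg held 1 to 3 fragments in controls and 5 to 9 in GOF and was not tested. By mean FPKM Rarb was the lowest of the 3 RAR genes in both groups. None of the 7 corepressor and coactivator genes was called by edgeR, with log2 fold changes from -0.31 to 0.42 (0 at an unadjusted p under 0.05 and 0 called by DESeq2).

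Of 22 genes that textbooks list as responsive to retinoic acid 17 were tested, 2 were called higher and 1 lower, with a median log2 fold change of 0.10. Tgm2, a transglutaminase, rose from 10.3, 9.42 and 11.4 FPKM to 34.3, 33.8 and 29.4 FPKM (log2 1.55, SE 0.10, edgeR adjusted p = 2.08e-04), and its 3 GOF libraries lay close together. Cd38 moved the other way, from 2.64, 2.41 and 2.54 FPKM to 1.09, 1.44 and 0.746 FPKM (log2 -1.18, SE 0.29, edgeR adjusted p = 0.0252). It was not called without control replicate 1 (-1.25), control replicate 2 (-1.17), GOF replicate 0 (-1.19) or GOF replicate 2 (-0.93). The call was also lost with the label number as a replicate block and by limma on log2(FPKM + 1).

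**Figure D4:**
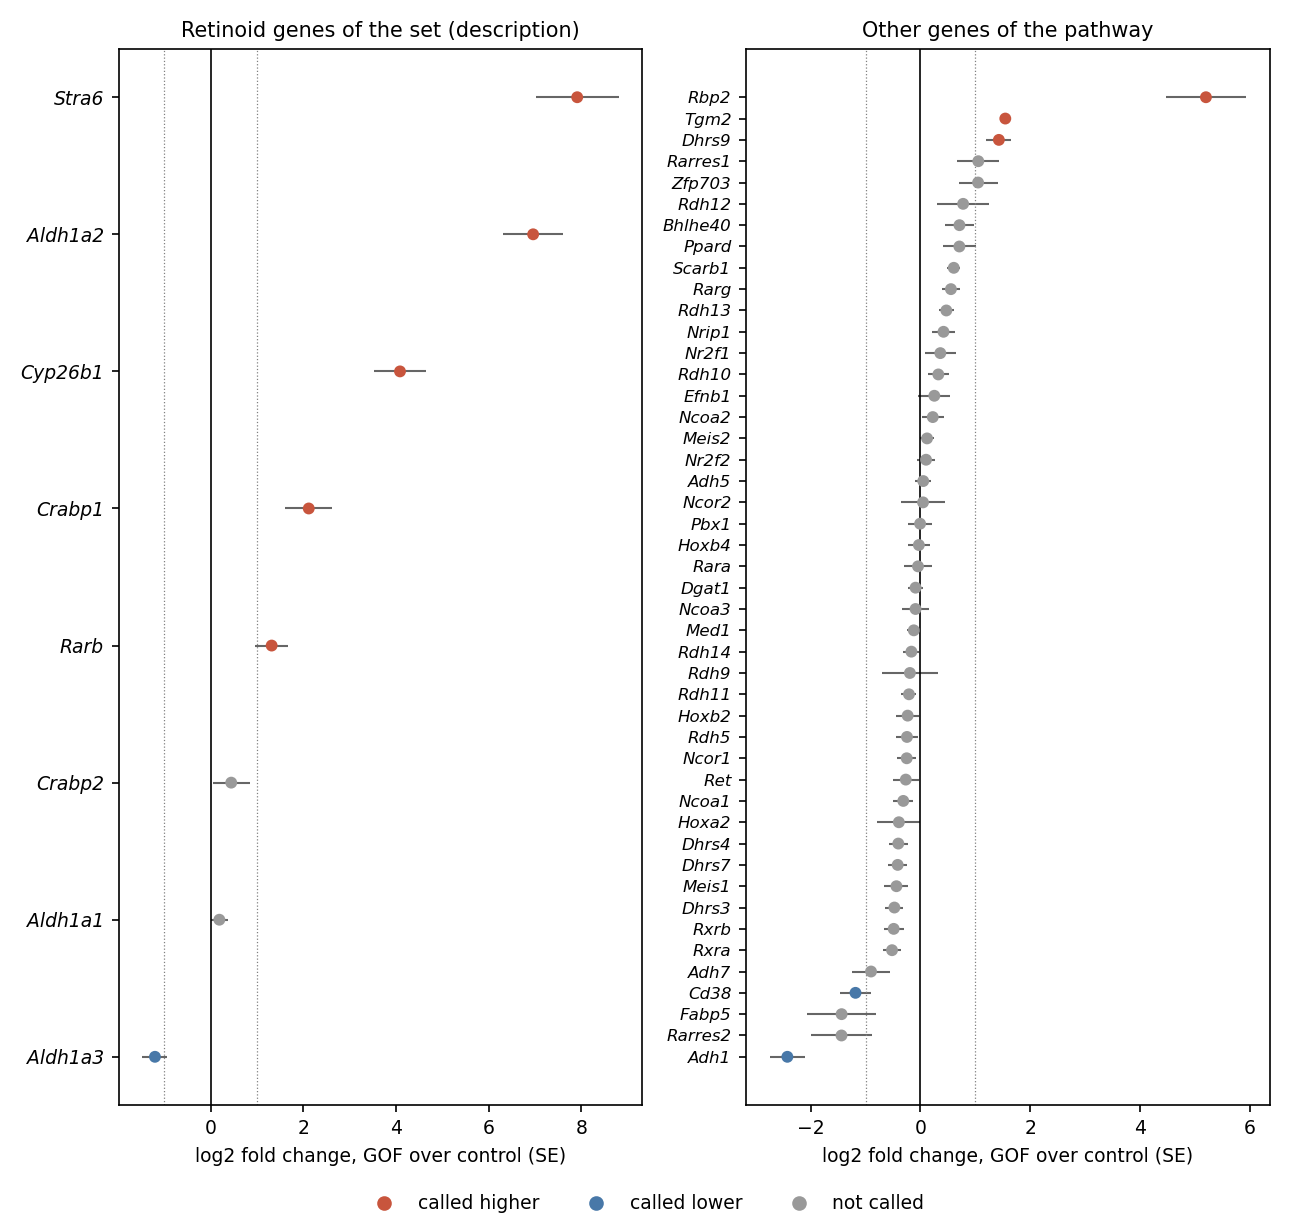
Log2 fold change of GOF over control, with SE, for the tested retinoid genes described first and for most of the other pathway genes tested. Colour marks genes called higher, called lower or not called, and dotted lines mark a 2-fold change. Aldh1a2 (6.96) and Stra6 (7.91, whose fitted value depends on the prior count since controls held 0 or 1 fragment) lie farthest to the right, and Adh1 (-2.42) lies farthest to the left.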

How the data were processed

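Stranded paired-end RNA-seq of 6 fibroblast cultures was processed by the authors with TopHat and Cuffdiff on mm10, in versions not given in the sources used here. The deposited estimated counts are fragments per gene from Cuffdiff, taken ahead of any scaling. The deposited FPKM values are those fragments after the authors' Cuffdiff run scaled them by transcript length and between libraries. Whether counting used the strand is not stated, and a fold change between fragments and FPKM can differ where the transcript lengths assigned to a gene differ. A separate table for lncRNAs was left aside, as were 3 more value columns, and 32 genes whose estimate failed in a library were left out.

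GENCODE M21 (GRCm38) gave symbols for 97.9% of the identifiers. Of the estimated counts 4.95% were not whole, and all were rounded. Groups came from the labels. They were fitted in R 4.3.3 with edgeR 4.0.16 (TMM, filterByExpr, quasi-likelihood test, Benjamini-Hochberg adjustment over 15462 genes), with thresholds of an adjusted p below 0.05 and more than a 2-fold change. On simulated data for 15462 genes, 187 of 200 changed genes and 11 unchanged ones were called. The changed genes were picked among those with enough fragments, and those made to rise had a median fitted log2 fold change of 2.01. The simulated libraries shared no animals. The rate therefore does not extend to smaller changes, to genes with few fragments or to cultures of 1 animal. Alternatives used DESeq2 1.42.0, limma 3.58.1 on log2(FPKM + 1) and log2(FPKM + 0.1), library totals, upper-quartile factors, no count filter, a minimum of 1 FPKM in 3 libraries, a replicate block and each library left out in turn. Tables were handled with the R package data.table (version 1.17.8), pandas 2.3.3 and numpy 2.4.6 under Python 3.11.15, and figures drawn with matplotlib 3.10.9. Depth was 35980831 to 42834467 fragments a library.

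The sample titles name the animal: the deviations of cultures of 1 animal from their group means correlated at 0.41 and 0.46 in the 2 animals with both cultures. The genes described and the pathway lists were chosen with earlier results of these data known. Named beside the 9 genes are Axin2 and Ctnnb1, up to 4 called genes a list by smallest adjusted p, the genes Lrat, Rdh10, Dhrs3, Cyp26a1, Cyp26c1, Rara, Rarg, Rxra, Rxrb, Rxrg and Fabp5, and the 3 nearest patterns of each called gene with a mean of at least 1 FPKM in a group. A few genes that this rule names are counted in their lists but are not reported here. Promoter windows are from RefSeq (GRCm38.p6).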

Additional observations from a re-analysis of the deposited data

How the results depend on the processing

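Calls among the 9 genes ranged from 3 to 6 when each library was left out in turn, with 3 without GOF replicate 0 or GOF replicate 1 and 6 without GOF replicate 2. They numbered 3 with a minimum of 1 FPKM in 3 libraries, where fewer genes were tested, and 3 with limma on log2(FPKM + 1), against 6 by default and by DESeq2. Of the other pathway genes 7 were called by default, 2 with limma on log2(FPKM + 1), and 5 to 8 with a library left out. With a library left out, Aldh1a1 ran from -0.006 (without GOF replicate 2) to 0.30, and Ctnnb1 from -0.16 to 0.0233 (without GOF replicate 0). Rara, near 0 throughout, became positive without control replicate 2 (0.11), GOF replicate 1 (0.04) or GOF replicate 2 (0.10), with a lowest value of -0.30 when GOF replicate 0 was left out, in both limma fits (0.0035 and 0.002) and with the animal as a replicate block (0.0439). The cause of these shifts was not tested.

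The replicate numbers of the labels do not name animals, and same-numbered cultures correlated at -0.41, 0.054 and -0.44. With the label number as a replicate block 5 of the 9 genes and 5 of the other pathway genes were called, and with the animal as the block 5 and 10. The group difference in the fit by animal rests on the 2 animals with both cultures. Genes with few fragments, such as Rbp4, Lrat, Cyp26a1 and Cyp26c1, are limited by depth.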

Other observations

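In the list of genes responsive to retinoic acid, DESeq2 called Rarres1 and Rarres2 beside the genes that edgeR called. Both were chosen after their values were seen. Rarres1, a retinoic acid receptor responder gene, stood at 1.38 ± 0.209 FPKM in controls and 2.92 ± 1.58 FPKM in GOF (SD, n = 3 each), and the log2 difference of 1.05 did not pass edgeR's test (adjusted p = 0.0919). Rarres2, which encodes the chemoattractant chemerin, stood at 3.27 ± 1.01 FPKM and 1.25 ± 0.918 FPKM (SD, n = 3 each), and the log2 difference of -1.44 did not pass edgeR's test either (adjusted p = 0.112).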
